A study of Mus musculus with 12 samples.

Results

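The genes described here are 10 components of the Notch pathway, chosen by symbol: the ligands *Dll1*, *Dll3*, *Jag1* and *Jag2*, the receptors *Notch1*, *Notch2* and *Notch3*, the DNA-binding factor *Rbpj*, and the target genes *Hes1* and *Hey1*. All 10 had a row among the 23086 gene symbols of the count table, and all 10 passed the filter on low counts that left 12322 genes for testing. The study set out to find genes that respond to LHX1, a homeodomain protein of the LIM class that head formation requires in the mouse. RNA was sequenced from embryoid bodies, aggregates of differentiating mouse embryonic stem cells (A2lox.cre cells, in which doxycycline switches on an inserted gene), after 2 days of differentiation. The 4 groups of 3 libraries were the line carrying a mutant FLAG-Lhx1 with doxycycline, the same mutant line without it, the line carrying wild-type FLAG-Lhx1 with doxycycline, and that wild-type line without it, all collected at 16 h of treatment or of the untreated control. All 4 groups thus carry a FLAG-Lhx1 insertion. The change in the mutant form, the dose of doxycycline and the number of clones per line are not stated in the labels.

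Notch signalling passes between touching cells. A Delta-like or Jagged ligand on 1 cell binds a Notch receptor on its neighbour, proteases release the receptor's intracellular part, and this enters the nucleus, joins RBPJ on DNA and switches on targets such as the *Hes* and *Hey* repressors. Without that partner RBPJ holds the same targets down. DLL3 differs from DLL1 in that it is known to dampen Notch signalling in its own cell rather than to activate a neighbour. In mouse embryos *Dll1* and *Dll3* are known for their part in segmenting the mesoderm, and Notch signalling for keeping neural progenitors from differentiating.

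Libraries held 4289984 to 4850393 counts. *Lhx1* stood at 248 ± 12.6 CPM (counts scaled to the size of the library, with TMM scaling) in the mutant line with doxycycline and 0.421 ± 0.0124 CPM without it, and at 296 ± 9.37 CPM in the wild-type line with doxycycline and 2.09 ± 1.13 CPM without it (SD, n = 3 each). The 7 marker genes of the epiblast and pluripotent cells summed to between 4430 and 5220 CPM in every library. None of the 7 genes of presomitic and nascent mesoderm, a tissue where Delta genes are high, passed the filter. They summed to at most 4.28 CPM in any library, and *Msgn1* had no count. Wild-type library 2 with doxycycline stood apart, with 14800 CPM of the ribosomal precursor *Rn45s* against 875 to 2620 CPM in the other 11. So did wild-type library 3 without doxycycline, with 229 CPM of the hypoxia gene *Bnip3* against 58.5 and 63.3 CPM in its group. Wild-type library 3 with doxycycline had 107 CPM of *Bnip3*, against 52.1 and 65.8 CPM in its group. The mutant libraries had 83.4 to 148 CPM of *Bnip3*. Whether the 3 replicates of a group were grown separately is not stated, and p-values therefore cover only the spread between these libraries, which may be technical.

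With doxycycline in the wild-type line the Delta ligands changed in opposite directions. *Dll3*, *Rbpj* and *Notch2* rose, and *Dll1* and *Jag1* fell, so that 5 of the 10 genes were called in the wild-type line (edgeR quasi-likelihood test with Benjamini-Hochberg adjusted p under 0.05), beside 5.32% of all 12322 genes tested (2.76% higher and 2.56% lower). Without library 2 of either wild-type group, and in DESeq2, 3 of the 10 were called, *Dll1*, *Dll3* and *Rbpj*. The targets *Hes1* and *Hey1*, and *Notch1*, *Notch3* and *Jag2*, were not called. In 7 of the 10 genes the libraries of the groups did not overlap, as in 18.9% of all genes. The median of the log2 fold changes was 0.03 over the 10 genes and 0 over all genes, while the median of their sizes was 0.3 over the 10 genes and 0.1 over all genes. In bulk RNA such as this, fewer cells of a type and less RNA per cell cannot be told apart.

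**Figure D1:**
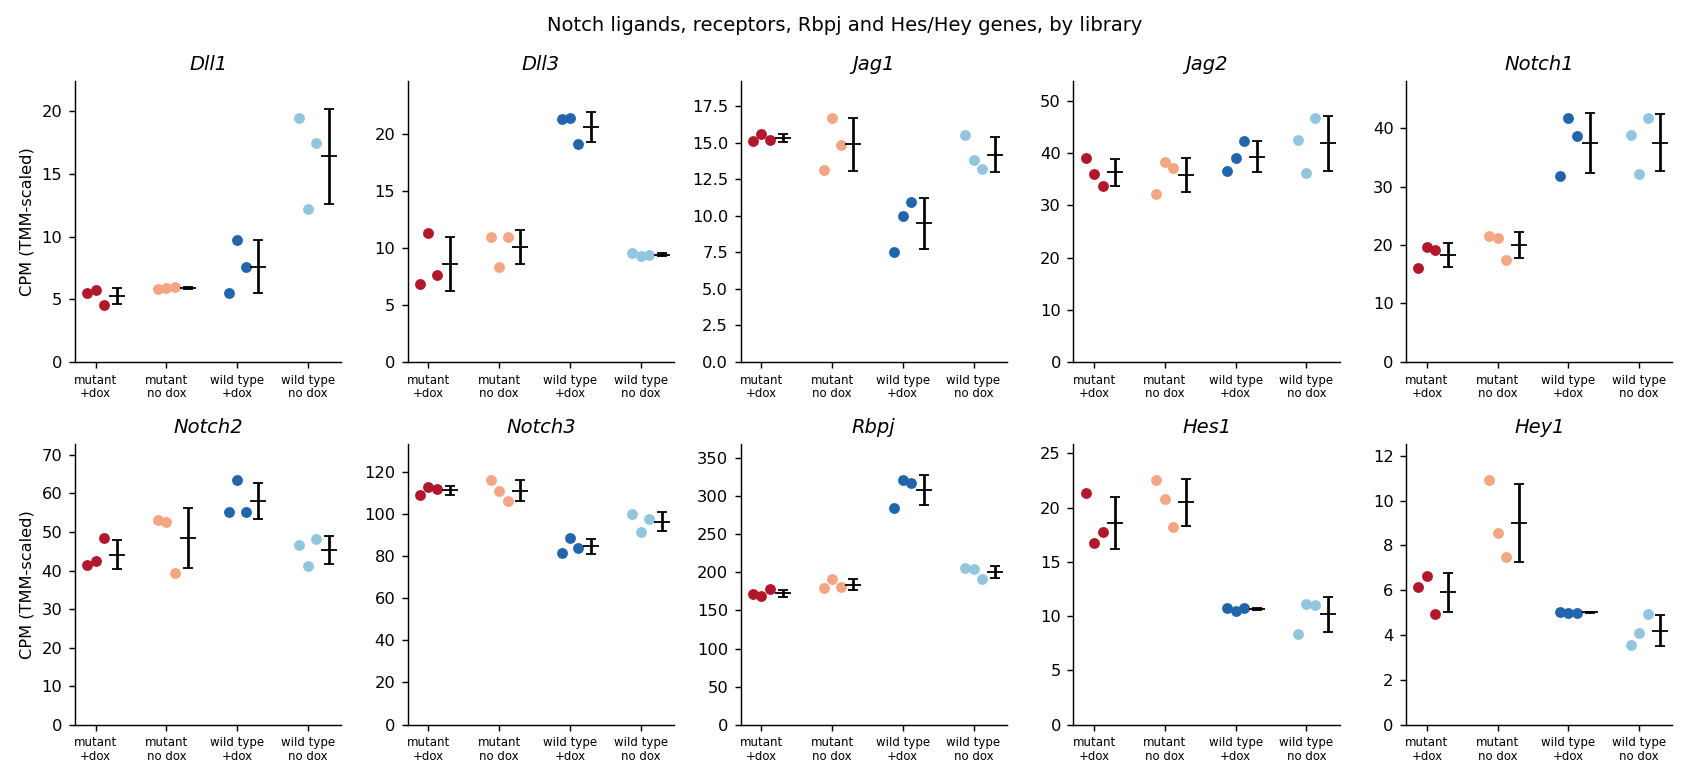
Level of each gene in CPM (vertical axis from 0) in the 12 libraries, in the order mutant with doxycycline, mutant without, wild type with doxycycline and wild type without. Points are libraries and bars the mean ± SD of 3. *Dll3* and *Rbpj* are high in the wild-type line with doxycycline, *Dll1* is high in the wild-type line without it, and *Hes1* is higher in all 6 mutant libraries than in the 6 wild-type ones.

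Among the ligands, *Dll3* (ENSMUSG00000003436.11, chromosome 7, 28293553 to 28302238, mm10) showed the largest rise of the 10 genes. It had 21.3, 21.4 and 19.1 CPM in the wild-type libraries with doxycycline and 9.51, 9.27 and 9.41 CPM in those without. The treated libraries were all above the untreated ones, and the log2 fold change was 1.13 (95% interval 0.80 to 1.45, SE 0.16, edgeR adjusted p = 5.64e-07). *Dll3* in the mutant line had 6.8, 11.3 and 7.62 CPM with doxycycline and 10.9, 8.35 and 10.9 CPM without. These groups overlapped, with a log2 fold change of −0.23 (95% interval −0.60 to 0.15, edgeR adjusted p = 0.999). The mutant response lay below the wild-type response by 1.35 on the log2 scale (edgeR adjusted p = 0.000187, SE 0.25), and over 17 alternative fits this difference kept its direction and its call.

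*Dll1* (ENSMUSG00000014773.13, chromosome 17, 15367354 to 15376872), the main activating Delta ligand, went the other way. It had 5.49, 9.74 and 7.61 CPM in the wild-type libraries with doxycycline and 19.5, 12.2 and 17.5 CPM in those without, with no overlap. The log2 fold change was −1.11 (edgeR adjusted p = 1.93e-05, SE 0.19). Mutant libraries had 5.48, 5.77 and 4.53 CPM with doxycycline and 5.8, 5.9 and 5.99 CPM without, so the untreated mutant libraries already lay within the range of the treated wild-type ones. The mutant log2 fold change was −0.17 (95% interval −0.66 to 0.32). The difference between the responses, 0.94 (SE 0.31), did not pass the threshold (edgeR adjusted p = 0.104, and 0.0341 to 0.450 over 17 alternatives). It passed when untreated wild-type library 2 (0.0341) or treated wild-type library 2 (0.0414) was left out. Reads of *Dll1* may include those of the antisense RNA *A930024N18Rik*, which shares 867 exonic bases with it in GENCODE M21 and is not listed under that symbol in the table, since strand use in counting is not stated.

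Set against each other within a library, the Delta genes separated the wild-type groups. There were 3.88, 2.2 and 2.51 *Dll3* counts per *Dll1* count with doxycycline and 0.488, 0.759 and 0.538 without. In the mutant line this ratio was 1.24, 1.96 and 1.68 with doxycycline and 1.89, 1.41 and 1.82 without. The treated wild-type libraries were all above 2, the untreated wild-type libraries all below 1, and the mutant libraries lay between with either treatment. The ratio uses the same counts as the results for *Dll3* and *Dll1* above and is not separate evidence for them.

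**Figure D2:**
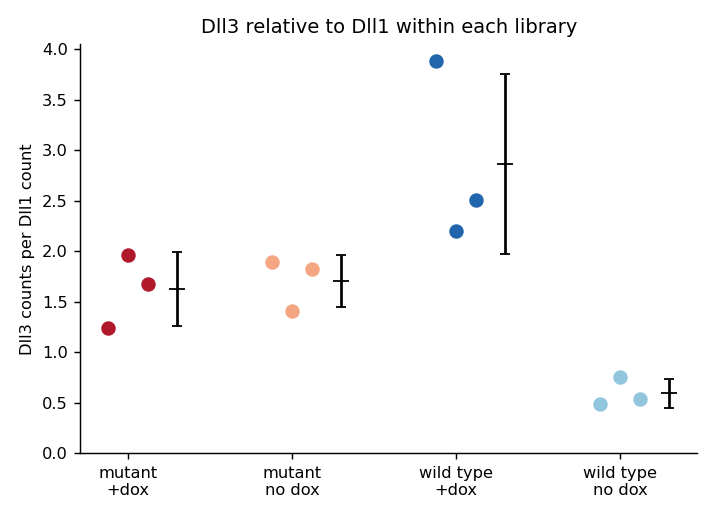
*Dll3* counts per *Dll1* count (vertical axis from 0) in each library, by line and doxycycline. Points are libraries and bars the mean ± SD of 3. The wild-type libraries with doxycycline reach 2.2 to 3.88, those without 0.488 to 0.759, and the 6 mutant libraries lie between 1.24 and 1.96.

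*Jag1* (ENSMUSG00000027276.7, chromosome 2, 137081456 to 137116644), a ligand of the Jagged type, had 7.54, 9.98 and 10.9 CPM in the wild-type libraries with doxycycline and 15.5, 13.8 and 13.2 CPM in those without. All treated libraries were below the untreated ones, and the log2 fold change was −0.58 (edgeR adjusted p = 0.028, SE 0.17, and 0.0253 to 0.197 over 18 alternatives). The call was lost in DESeq2 (0.17) and without untreated wild-type library 1 (0.129) or 2 (0.0619) or treated wild-type library 1 (0.197) or 2 (0.0504). *Jag1* in the mutant line had 15.1, 15.6 and 15.2 CPM with doxycycline and 13.1, 16.7 and 14.8 CPM without. The difference of the responses was 0.62 (edgeR adjusted p = 0.153, SE 0.22). *Jag2*, the other Jagged ligand, ranged from 32.2 to 46.8 CPM over all 12 libraries, and its log2 fold changes were 0.01 (95% interval −0.19 to 0.22) in the mutant line and −0.09 (95% interval −0.29 to 0.11) in the wild-type line.

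*Rbpj* (ENSMUSG00000039191.12, chromosome 5, 53466152 to 53657362), the DNA-binding factor through which all Notch receptors act, lies on the plus strand of its chromosome. It had 285, 321 and 318 CPM in the wild-type libraries with doxycycline and 206, 205 and 191 CPM in those without. The groups were far apart relative to their spread, with a log2 fold change of 0.62 (95% interval 0.51 to 0.72, SE 0.05, edgeR adjusted p = 2.34e-14), which ranked 23 of 12322 genes by p. Mutant libraries had 171, 169 and 178 CPM with doxycycline and 179, 192 and 181 CPM without. The treated mutant libraries were all slightly lower, but the log2 fold change of −0.09 (95% interval −0.20 to 0.02) was not called (edgeR adjusted p = 0.999). The responses differed by −0.71 (edgeR adjusted p = 2.07e-10, SE 0.07), with the call kept in all 17 alternatives. GENCODE M21 lists processed pseudogenes of this gene (*Rbpj-ps1* and *Rbpj-ps3*) that have no row in the count table, so how reads shared with them were counted is not known.

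The upstream sequences of *Dll3*, *Dll1*, *Jag1* and *Rbpj* are shown because these genes had the 4 largest called changes in the wild-type line by size of log2 fold change, and because homeodomain proteins such as LHX1 recognise the letters TAAT. RefSeq promoter windows (GRCm38.p6, the 250 bases before each start) were found for 8 of the 10 genes, 10 windows in all; *Hes1* and *Hey1* had none. Capitals mark TAAT or its reverse complement ATTA. Each stretch is given on the gene's strand, and holds the part of the window outside annotated exons of the gene, or 30 bases around matches that lie in an exon.

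*Dll3*, chr7:28301950-28301979, minus strand: cagtatcttagaaATTAacccctgccgctt
*Dll1*, first start, chr17:15375977-15376073, minus strand: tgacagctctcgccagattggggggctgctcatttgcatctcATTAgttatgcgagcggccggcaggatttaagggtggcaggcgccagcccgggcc
*Dll1*, other start, chr17:15376933-15377182, minus strand: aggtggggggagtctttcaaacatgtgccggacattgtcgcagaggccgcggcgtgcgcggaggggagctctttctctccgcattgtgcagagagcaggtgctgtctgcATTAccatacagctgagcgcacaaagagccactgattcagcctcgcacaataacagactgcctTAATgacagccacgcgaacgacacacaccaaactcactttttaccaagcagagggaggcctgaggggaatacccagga
*Jag1*, chr2:137116553-137116582, minus strand: aaaaggctgcgcaTAATcaTAATAATaaaa
*Rbpj*, first start, chr5:53590096-53590213, plus strand: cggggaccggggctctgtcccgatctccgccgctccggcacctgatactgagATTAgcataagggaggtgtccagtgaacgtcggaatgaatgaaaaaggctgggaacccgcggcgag
*Rbpj*, other start, chr5:53590335-53590364, plus strand: ccggtccccgtagTAATgccctccggtttt

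Every window of *Dll3*, *Dll1*, *Jag1* and *Rbpj* held these letters. The windows of *Notch2*, which was also called in the wild-type line, and of *Jag2*, *Notch1* and *Notch3*, which were not called, held none. The windows of *Dll3*, of the other start of *Rbpj* and of *Jag2* lay wholly in annotated exons of their genes. Among all 32851 RefSeq windows of this length, 54.9% held TAAT or ATTA. The GC content of the windows ran from 52% (*Dll3*) to 68.4% in the genes with a match and from 66% to 87.2% (*Jag2*) in those without, against a median of 52.4% over all windows, and its part in this split was not tested. The longer LIM homeodomain letters TAATTA, which contain TAAT and are their own reverse complement, were in 4.84% of all windows and in none of these, and the RBPJ letters GTGGGAA (or TTCCCAC) were in 5.42% of all windows and in none of these. The N-box CACNAG (or CTNGTG) that Hes repressors bind was found in the windows of *Notch1*, *Notch2* and *Notch3*, beside 36.7% of all windows. Such matches describe letters and do not show binding.

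Of the receptors, *Notch2* (chromosome 3, 98013527 to 98150361) was called in the wild-type line. It had 55.3, 63.4 and 55.2 CPM with doxycycline and 46.6, 41.1 and 48.2 CPM without, with no overlap and a log2 fold change of 0.35 (edgeR adjusted p = 0.0154, SE 0.10, and 0.00287 to 0.138 over 18 alternatives). The call was lost in DESeq2 (0.101), without both libraries that stood apart (0.0832), and without untreated (0.138) or treated (0.119) wild-type library 2. Mutant libraries had 41.4, 42.5 and 48.4 CPM with doxycycline and 53.2, 52.5 and 39.4 CPM without. The difference of the responses, −0.49 (edgeR adjusted p = 0.0385, SE 0.14), lost its call in 9 of 17 alternatives (range 0.00164 to 0.228), among them the replicate block (0.0643), DESeq2 (0.228), the fit without both libraries that stood apart (0.0804), and those without library 1 (0.162) or 2 (0.156) of the untreated mutant, 1 (0.129) or 2 (0.125) of the treated mutant, 2 of the untreated wild type (0.143) and 2 of the treated wild type (0.125).

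*Notch1* (chromosome 2, 26457903 to 26516663) and *Notch3* (chromosome 17, 32120820 to 32166852) were not called in either response. *Notch1* had 31.8, 41.8 and 38.7 CPM in the wild-type libraries with doxycycline and 38.8, 32.1 and 41.7 CPM in those without, and its log2 fold change had a 95% interval of −0.22 to 0.21. *Notch3* had 81.6, 88.6 and 84.1 CPM in the wild-type libraries with doxycycline and 100, 91.3 and 97.5 CPM in those without. These libraries did not overlap, but the log2 fold change of −0.19 (95% interval −0.32 to −0.05) had an edgeR adjusted p of 0.095. Mutant intervals were −0.41 to 0.14 for *Notch1* and −0.12 to 0.12 for *Notch3*. Each of the 3 receptor genes overlaps another transcript in GENCODE M21 that is not listed in the table under its symbol, by 414 to 1068 exonic bases, so some of its reads may belong to that transcript.

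The target genes showed no called response. *Hes1* (chromosome 16, 30064384 to 30067796), a repressor that Notch induces and that represses its own promoter, had 10.7, 10.5 and 10.7 CPM in the wild-type libraries with doxycycline and 8.33, 11.1 and 11 CPM in those without (log2 fold change 0.06, 95% interval −0.29 to 0.42, edgeR adjusted p = 0.925). The mutant interval was −0.41 to 0.12. *Hey1* (chromosome 3, 8663359 to 8667256), a related repressor, had 5.03, 4.99 and 5 CPM in the wild-type libraries with doxycycline and 3.57, 4.07 and 4.93 CPM in those without. Its libraries held 15 to 23 counts each in the wild-type line, and the interval of −0.27 to 0.78 on the log2 scale leaves a change of up to that size undetected at this depth.

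In the mutant line none of the 10 genes was called by edgeR, beside 0.0162% of all genes tested (*Lhx1* and *Hprt*, named after its value was seen), and DESeq2 called 0 of them as well. At an unadjusted p under 0.05, which 4.69% of all genes had, there was 1, *Hey1*, with 6.14, 6.62 and 4.94 CPM with doxycycline and 10.9, 8.55 and 7.49 CPM without. The treated mutant libraries were all lower, with a log2 fold change of −0.61 (95% interval −1.02 to −0.19, edgeR adjusted p = 0.883, and 0.491 to 1 over 18 alternatives). In 3 of the 10 genes the mutant groups did not overlap (*Dll1*, *Rbpj* and *Hey1*), as in 10.6% of all genes. For the difference of the responses 3 of 10 genes were called, *Dll3*, *Rbpj* and *Notch2*, beside 2.49% of all genes, and 7 of the 10 had an unadjusted p under 0.05, beside 12.9% of all genes. Both responses enter that difference, so it shares its libraries with them.

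**Figure D3:**
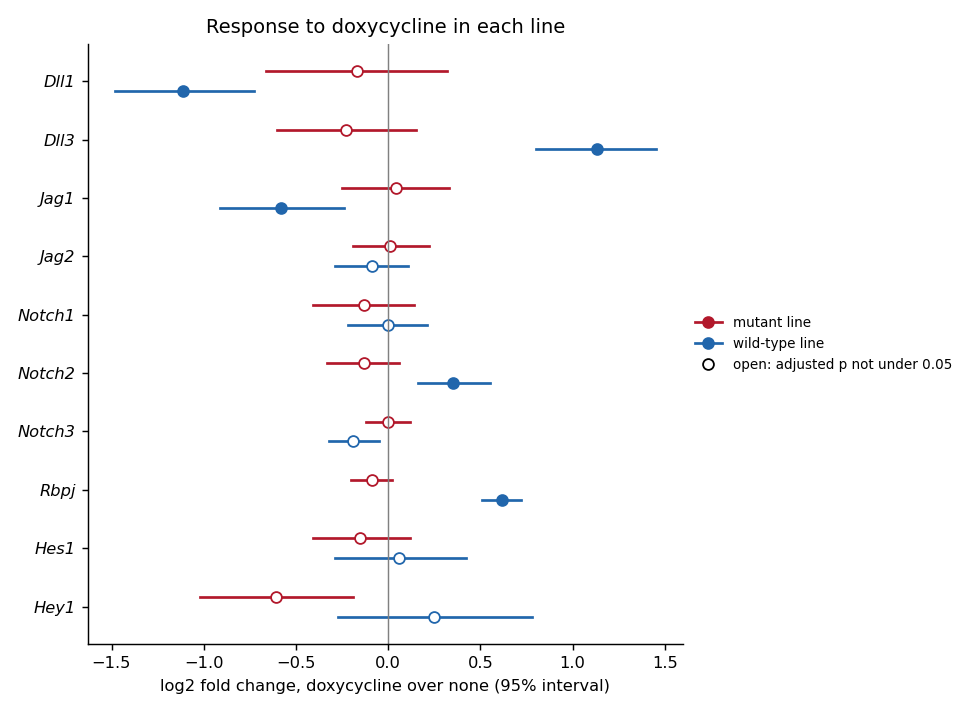
Log2 fold change of doxycycline over none (horizontal axis) for each gene in the mutant line (red, upper) and the wild-type line (blue, lower), with 95% intervals. Filled points passed an adjusted p of 0.05. The 5 filled points are all of the wild-type line, *Dll3*, *Rbpj* and *Notch2* to the right of 0 and *Dll1* and *Jag1* to the left.

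The lines differed in the Notch genes before any doxycycline. In the untreated mutant line *Hes1*, *Hey1* and *Notch3* were higher than in the untreated wild-type line, and *Dll1*, *Notch1* and *Rbpj* were lower, 6 of the 10 genes beside 45.5% of all genes tested (23% higher and 22.6% lower). The libraries did not overlap in 5 of the 10 genes, as in 51.8% of all genes, so these shares are near the background of a comparison in which the lines differed widely.

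*Hes1* had 22.5, 20.8 and 18.2 CPM in the untreated mutant libraries and 8.33, 11.1 and 11 CPM in the untreated wild-type ones. The log2 fold change of mutant over wild type was 1.01 (edgeR adjusted p = 1.72e-07, SE 0.15). *Hey1* was higher by 1.09 (edgeR adjusted p = 6.93e-05, SE 0.23), at 10.9, 8.55 and 7.49 CPM in the mutant line against 3.57, 4.07 and 4.93 CPM in the wild-type line. Both targets were thus higher in all 3 untreated mutant libraries than in any untreated wild-type library.

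The ligand *Dll1* and the receptor *Notch1* were lower in the untreated mutant line. *Dll1* averaged 5.90 ± 0.0962 CPM in the mutant line and 16.4 ± 3.77 CPM in the wild-type line (SD, n = 3 each), a log2 fold change of −1.47 (edgeR adjusted p = 6.77e-09, SE 0.19). *Notch1* averaged 20.1 ± 2.19 CPM in the mutant line and 37.5 ± 4.91 CPM in the wild-type line, a log2 fold change of −0.90 (edgeR adjusted p = 1.04e-08, SE 0.12). *Notch3* was higher by 0.20 (edgeR adjusted p = 0.00604, SE 0.06, 0.00416 to 0.0532 over 18 alternatives), a call lost without wild-type library 2 (0.0532). *Rbpj* was lower by a log2 fold change of −0.13 (edgeR adjusted p = 0.0459, SE 0.05), but its libraries overlapped and the call was lost in 11 of 18 alternatives (range 0.00803 to 0.163, with 0.149 without untreated wild-type library 1, 0.133 without 2, 0.163 without untreated mutant library 1 and 0.11 without 3, and 0.0521 to 0.0534 without any 1 of the treated mutant libraries). *Jag2* (log2 fold change −0.22, edgeR adjusted p = 0.0649) was called without untreated wild-type library 2 (0.0144; range 0.0144 to 0.354).

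Markers of other cell types also differed between the untreated lines, and members of 1 list did not always move together. The 6 neural progenitor genes, 2 of them past the filter, summed to 189 to 206 CPM in the mutant libraries and 51.6 to 58.3 CPM in the wild-type ones, with *Olig3* at 0 in the mutant group. Most of the sum was *Nes* (188 ± 8.44 CPM in the mutant line and 49 ± 3.2 CPM in the wild-type line), and *Pax6* was also called higher in the mutant line (log2 fold change 0.73). The 6 primitive endoderm genes (2 past the filter) summed to 18.7 to 25.1 CPM in the mutant line and 12.4 to 17.4 CPM in the wild-type line, with *Gata4* called higher and *Dab2* not called. The 7 endothelial genes (4 past the filter) summed to 48.3 to 56.5 CPM in the mutant line and 78.3 to 81.2 CPM in the wild-type line, with *Pecam1* and *Tek* called lower and *Kdr* and *Egfl7* not called. Of the 7 epiblast genes, *Fgf5* (1), *Otx2* (0.59) and *Pou5f1* (0.15) were higher in the mutant line on the log2 scale, *Sox2* (−0.16) was lower and the other 3 were not called. The part of these in the differences of *Hes1*, *Hey1*, *Dll1* and *Notch1* was not tested.

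Within the wild-type response single markers moved in both directions as well. The epiblast sums were 4430 to 4550 CPM with doxycycline and 4650 to 5000 CPM without, but of the 7 genes *Pou5f1* (log2 fold change −0.21) and *Nanog* (−0.48) were called lower, *Fgf5* rose (0.88), at 159 ± 7.89 CPM with doxycycline and 86.4 ± 4.91 CPM without, and the other 4 were not called. The neural progenitor sums overlapped, at 54.1 to 59.4 CPM with doxycycline and 51.6 to 58.3 CPM without. Of their 2 tested genes *Pax6* rose, at 9.93 ± 0.256 CPM with doxycycline and 3.97 ± 0.113 CPM without (log2 fold change 1.32, edgeR adjusted p = 2.13e-05), and *Nes* was not called (−0.12). The 7 neuronal genes, 3 of them past the filter, summed to 95.5 to 105 CPM with doxycycline (*Neurog1* at 0) and 82.9 to 90.9 CPM without (*Neurog2* at 0). Among these *Tubb3* rose (0.40), *Elavl3* fell by 0.52 on the log2 scale and *Neurod1* was not called (−0.17). The primitive endoderm sums were 9.78 to 12.4 CPM with doxycycline and 12.4 to 17.4 CPM without, with neither tested gene called. The part of these markers in the changes of *Dll3*, *Dll1*, *Jag1*, *Notch2* and *Rbpj* was not tested.

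With doxycycline in both lines, 7 of the 10 genes differed, beside 44.4% of all genes (21.9% higher and 22.4% lower). *Jag1*, *Notch3* and *Hes1* were higher in the mutant line and *Dll3*, *Notch1*, *Notch2* and *Rbpj* lower, and in these 7 genes the libraries did not overlap, as in 51.7% of all genes. *Dll3* averaged 8.58 ± 2.41 CPM in the treated mutant line and 20.6 ± 1.26 CPM in the treated wild-type line (log2 fold change −1.26, SE 0.16, edgeR adjusted p = 3.50e-09). *Rbpj* averaged 173 ± 4.86 CPM in the mutant line and 308 ± 19.6 CPM in the wild-type line (−0.83, SE 0.05, edgeR adjusted p = 3.07e-20).

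*Jag1* was higher in the treated mutant line by 0.69 (SE 0.16) and *Notch3* by 0.39 (SE 0.06), on the log2 scale. *Hes1* stayed higher in the mutant line, at 18.5 ± 2.41 CPM against 10.6 ± 0.149 CPM in the wild-type line (log2 fold change 0.80, SE 0.15). *Notch1* stayed lower, at 18.3 ± 1.98 CPM in the mutant line and 37.4 ± 5.14 CPM in the wild-type line (−1.03, SE 0.12). *Hey1* did not pass here (0.23, 95% interval −0.25 to 0.71, edgeR adjusted p = 0.451), nor did *Dll1* (−0.53, 95% interval −1 to −0.06, edgeR adjusted p = 0.0615, 0.0172 to 0.345 over 18 alternatives), which passed without wild-type library 1 (0.0172). These comparisons use the same libraries as the responses above and are not separate evidence for them. The neural progenitor sums were 186 to 210 CPM in the treated mutant line and 54.1 to 59.4 CPM in the treated wild-type line, but *Nes* was called higher (log2 fold change 2.04) and *Pax6*, the other tested gene, lower (−0.64) in the mutant line. The primitive endoderm sums were 20.3 to 23.5 CPM in the mutant line and 9.78 to 12.4 CPM in the wild-type line, with both tested genes called higher, and the endothelial sums 53.6 to 56.8 CPM in the mutant line and 72 to 86.7 CPM in the wild-type line, with *Pecam1* alone of 4 called lower. Among the neuronal genes *Tubb3* was lower (−0.40) and *Elavl3* higher (0.38). The epiblast sums were 4960 to 5120 CPM in the treated mutant line and 4430 to 4550 CPM in the treated wild-type line. Of these genes *Otx2* (0.48), *Pou5f1* (0.42) and *Nanog* (0.41) were called higher in the mutant line, and *Sox2*, *Fgf5*, *Dnmt3b* and *Utf1* were not called. The part of all these markers in the differences of the Notch genes was not tested.

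**Figure D4:**
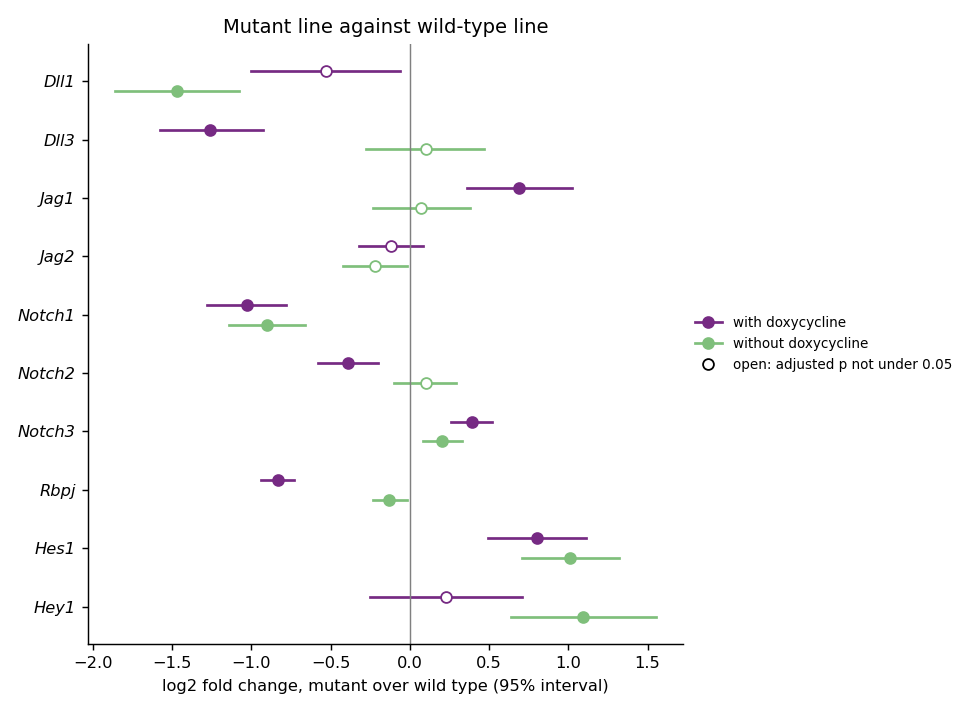
Log2 fold change of the mutant over the wild-type line (horizontal axis) for each gene with doxycycline (purple, upper) and without (green, lower), with 95% intervals. Filled points passed an adjusted p of 0.05. *Notch1* lies left of 0 and *Hes1* right of 0 under both conditions, while *Dll3* and *Jag1* are filled with doxycycline and open without it.

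Per kilobase of annotated exons, *Rbpj* and *Notch3* had the highest levels of the 10 genes in every group. In the treated wild-type line the levels were 24.2 CPM per kb for *Rbpj*, 10.5 for *Notch3* and 7.23 for *Dll3*, each above the next in all 3 libraries. *Jag2* (5.65), *Notch2* (5.38) and *Hes1* (5.22) followed, with overlap between neighbours, and *Notch1* (2.63), *Dll1* (1.80), *Jag1* (1.63) and *Hey1* (1.53) came last, also overlapping in order. In the untreated wild-type line *Dll1* (3.89 CPM per kb) was above *Dll3* (3.30) with overlapping libraries, and *Hey1* (1.28) was last. In the mutant line *Hes1* was the third of the 10, at 9.11 CPM per kb with doxycycline and 10.1 without, and *Dll1* was last, at 1.25 with doxycycline and 1.40 without, overlapping *Notch1* (1.29 with doxycycline and 1.41 without). *Notch3* and *Rbpj* overlapped each other in the mutant line. Exon lengths are the union over transcripts in GENCODE M21, and the annotation behind the counts is not stated.

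Of the rest of the pathway few genes were called with doxycycline. The list held 60 further genes, of which 46 passed the filter. Its groups were other ligands and receptors, glycosyltransferases, trafficking factors and ubiquitin ligases, proteases, nuclear coactivators and corepressors, and genes listed as targets. In the wild-type line 1 rose, 3 fell and 42 were not called, 8.7% called beside 5.32% of all genes. An unadjusted edgeR p under 0.05 was found in 13 of the 46, beside 16% of all genes. In 15 of the 46 the wild-type groups did not overlap, beside 18.9% of all genes. *Tle4*, a Groucho corepressor that Hes proteins recruit, rose by 0.20 (edgeR adjusted p = 0.00542, SE 0.05). *Hes6*, a Hes family member that counters HES1, fell by 0.38 (edgeR adjusted p = 0.0087, SE 0.10), at 32.6 ± 1.89 CPM with doxycycline and 42.3 ± 3.13 CPM without. *Kat2b*, an acetyltransferase, fell by 0.35 (edgeR adjusted p = 0.00414, SE 0.09), and *Ctbp2*, a corepressor, fell by 0.16 (edgeR adjusted p = 0.0173, SE 0.05). DESeq2 lost all of these calls but that of *Tle4*. *Hes6* also lost it without both libraries that stood apart and without wild-type library 3 of either treatment (range 0.0054 to 0.143), and *Ctbp2* in the fit of the wild-type libraries alone and without untreated library 1 or 2 or treated library 2 (range 0.00311 to 0.123).

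Of the 5 other ligands and receptors 2 passed the filter. No tested ligand, receptor, glycosyltransferase, trafficking factor or protease of that list was called in the wild-type response. Among the tested ligands, receptors and glycosyltransferases the groups did not overlap in *Lfng*, *Dlk1* and *Pofut1*. Their log2 fold changes were −0.80 (edgeR adjusted p = 0.0983), −0.77 (0.225) and 0.33 (0.0834). In the mutant line edgeR and DESeq2 called 0 of the 46 genes, and 5 had an unadjusted edgeR p under 0.05, beside 4.69% of all genes. The response of *Tle4* was lower in the mutant line by 0.29 on the log2 scale (edgeR adjusted p = 0.00631, SE 0.07, 0.0537 without treated mutant library 3, range 0.00407 to 0.0537). That of *Hes6* was higher by 0.44 (edgeR adjusted p = 0.0396, SE 0.13), a call lost in 10 of 17 alternatives (range 0.0209 to 0.27). These were DESeq2 (0.27), the fit without both libraries that stood apart (0.172), and the fits without untreated mutant library 1 (0.0821) or 2 (0.107), treated mutant library 2 (0.0838) or 3 (0.142), untreated wild-type library 2 (0.0713) or 3 (0.129), and treated wild-type library 2 (0.0788) or 3 (0.128).

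**Figure D5:**
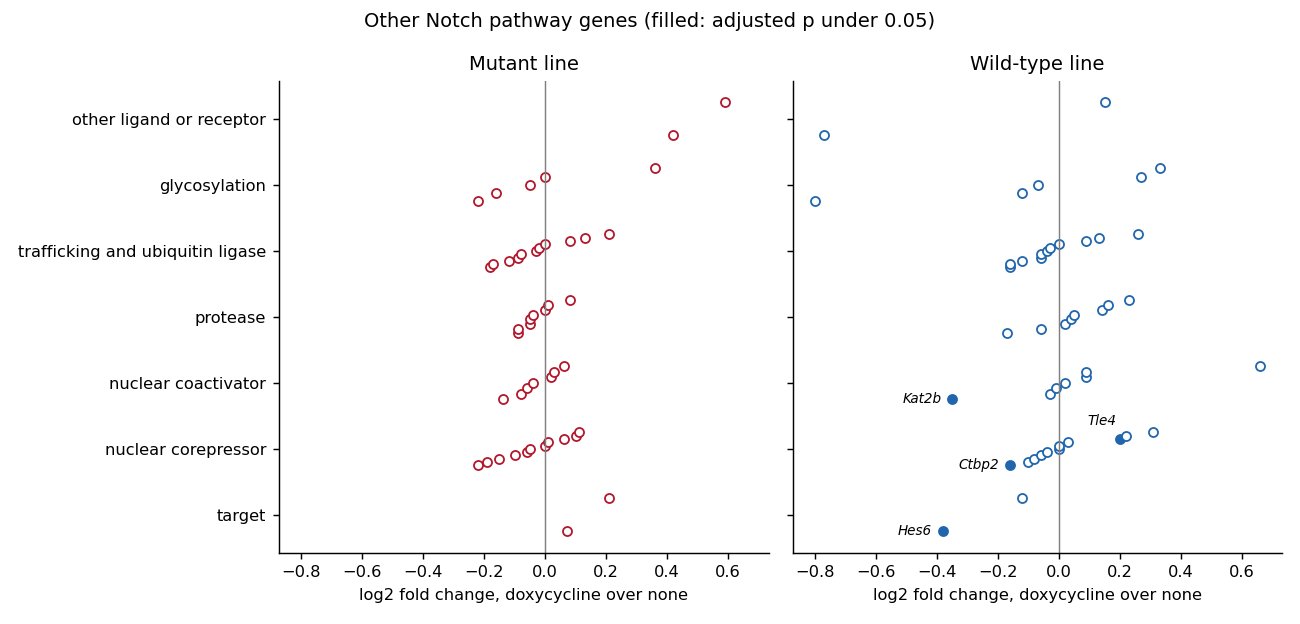
Log2 fold change of doxycycline over none (horizontal axis) for the 46 tested genes of the wider Notch list, by role, in the mutant line (left) and the wild-type line (right). Filled and named points passed an adjusted p of 0.05. These are *Kat2b*, *Ctbp2*, *Tle4* and *Hes6* in the wild-type line.

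Between the untreated lines 25 of the 46 genes differed, 14 higher and 11 lower in the mutant line, 54.3% beside 45.5% of all genes. Of 8 tested proteases 5 were called higher in the mutant line by edgeR, beside 23% of all genes, and the other 3 had log2 fold changes of −0.02 to 0.18 with an unadjusted p above 0.05. *Adam17*, a sheddase and 1 of the 5 (0.23), had overlapping groups and was not called without untreated mutant library 2 (adjusted p = 0.141), untreated wild-type library 3 (0.193) or the pair of libraries that stood apart (0.209), nor by DESeq2 (0.102), with a range of 0.00769 to 0.209 over 18 alternatives. Among the others *Ncstn*, a subunit of the gamma-secretase that cuts Notch, was higher by 0.45 (SE 0.08). Of the 11 tested corepressors 5 were lower, beside 22.6% of all genes, and 1 higher, beside 23%. Among the lower were *Tle1* at −0.81 (SE 0.13) and *Ncor1* at −0.45 (SE 0.06). *Spen*, also lower, was not called by edgeR without untreated mutant library 1 (adjusted p = 0.0545) or 3 (0.0755) or untreated wild-type library 1 (0.0739). *Hdac1*, also lower, was not called without untreated mutant library 1 (0.136). The coactivator *Maml1*, which binds the Notch and RBPJ complex, was higher by 0.67 (SE 0.09) and *Kat2b* was lower (−0.87, SE 0.09). The ubiquitin ligases *Dtx4* (0.72) and *Dtx3* (0.53) and the Hes family member *Hes6* (0.39) were higher. The receptor *Notch4* (−1.29) and the fringe enzyme *Rfng* (−0.64) were lower, while *Pofut1*, which adds fucose to Notch, was higher (0.30). Without untreated wild-type library 3, or without both libraries that stood apart, *Notch4* was not called, and *Pofut1* was not called without untreated mutant libraries 1 or 3, untreated wild-type library 1 or in DESeq2.

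With doxycycline 24 of the 46 genes differed between the lines, 15 higher and 9 lower in the mutant line, 52.2% beside 44.4% of all genes. *Hes6* was higher in the mutant line by 0.83 (SE 0.09), at 57.9 ± 4.82 CPM in the mutant line and 32.6 ± 1.89 CPM in the wild-type line. *Dlk1*, a noncanonical ligand, was higher by 1.34 (SE 0.30). *Tle4* was lower (−0.47, SE 0.05), as were *Ncor1* (−0.60), *Kat2a* (−0.30) and *Kat2b* (−0.50), and the fringe enzymes *Rfng* (−0.68) and *Mfng* (−0.88). The gamma-secretase subunit *Psenen* (0.49) and *Dtx3* (0.61) were higher. *Notch4* (−0.85) was not called without treated mutant libraries 2 or 3 or treated wild-type library 1 or in DESeq2, and *Dtx4* (0.29) was not called without treated mutant library 1 or treated wild-type library 3 or in DESeq2.

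Over the 12 libraries, the genes whose log2 CPM followed *Rbpj* most closely among 10479 genes with a mean of at least 5 CPM were *Dusp4*, a phosphatase acting on ERK (Pearson r = 0.981), *Hdac6*, a cytoplasmic deacetylase (0.98), and *Lap3*, an aminopeptidase (0.977). *Dll3* was followed by *Sfrp1*, a secreted WNT antagonist (0.963), *Rhpn2* (0.949) and *Plaur*, the urokinase receptor (0.94). *Dll1* was followed by *Atp11b* (0.971), *Pml*, of nuclear bodies (0.942), and *Rest*, a repressor of neuronal genes (0.942). The likeness of *Jag1* was highest with *Mtmr14* (0.935), *Chst15* (0.933) and *Bcl11a* (0.9), and that of *Notch2* with genes including *Myh10* (0.941) and *Clasp2* (0.922). The 12 libraries form 4 groups and share their group means, so these values describe likeness over groups and carry no test.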

How the data were processed

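Raw read counts for each gene symbol in 12 libraries were taken from the authors' deposited table, with no unmatched column and each column matched by name to a sample title. Per the labels, RNA came from a column kit and TruSeq chemistry was used to prepare libraries. The submitters' processing notes name Trimmomatic 0.33, TopHat2 2.1.1, limma and mm10. The counting tool, annotation and strand setting were not given in the sources used here.

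All 12 libraries were fitted together, 1 mean per group, with edgeR's quasi-likelihood test (edgeR 4.0.16, R 4.3.3) run on these deposited counts with TMM factors, robust estimation and the filterByExpr filter (minimum count 10, total 15), and Benjamini-Hochberg adjustment over all 12322 genes tested, which held 99.8% of the counts. Each SE is the absolute log2 change over the square root of F, and 95% intervals use the t distribution of the same fit. Changes are doxycycline over none, or mutant over wild type. Replicates of a group all differed by more than sampling noise (lowest chi-square per degree of freedom 1.11). The largest values were those of treated wild-type library 2 against libraries 1 (5.84) and 3 (6.28) of its group. Next came untreated wild-type library 3 against libraries 1 (2.37) and 2 (2.41) of its group. Untreated mutant library 3 also differed from libraries 1 (2.02) and 2 (1.91) of its group more than those did from each other (1.11). Positions and exon lengths come from GENCODE M21, of the same genome. Alternatives were RLE size factors, no filter, DESeq2 1.42.0, a replicate block, the libraries compared alone, and leaving out libraries.

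The 10 genes, the pathway and marker lists and the tests were chosen with earlier results of these data known. Named genes were the 10, *Lhx1*, the called pathway genes with the smallest adjusted p (up to 3 per role in the responses, up to 2 between lines), and the 3 genes most like each responder. *Rn45s* and *Bnip3* were chosen from earlier results, and *Adam17*, *Nrarp* and the marker genes named were chosen after their values were seen. Some genes that this rule names are not reported here.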

Additional observations from a re-analysis of the deposited data

Results flagged for a closer look

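For 3 of the 10 genes the response to doxycycline differed between the lines by the test of the difference itself (edgeR quasi-likelihood test, mutant response minus wild-type response), beside 2.49% of all genes. *Dll3* had a difference of −1.35 on the log2 scale (95% interval −1.85 to −0.86), from −0.23 in the mutant line and 1.13 in the wild-type line. *Rbpj* had −0.71 (95% interval −0.86 to −0.56), from −0.09 in the mutant line and 0.62 in the wild-type line. *Notch2* had −0.49 (95% interval −0.76 to −0.21), from −0.13 in the mutant line and 0.35 in the wild-type line. The call of *Notch2* was lost in 9 of 17 alternatives (adjusted p 0.0385, and 0.00164 to 0.228 over them, with 0.228 in DESeq2), while those of *Dll3* and *Rbpj* were kept in all 17.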

How the results depend on the processing

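In the wild-type response DESeq2 called 3 of the 10 genes (*Dll1*, *Dll3* and *Rbpj*) and 1 of the wider list, against 5 and 4, and leaving out single libraries gave 3 to 5 of each. For the difference of the responses the wider list had 1 call in DESeq2 and 1 without both libraries that stood apart, against 2, and 1 to 3 without single libraries. Over all genes DESeq2 called 380 against 655 in the wild-type response and 153 against 307 for the difference, and the mutant libraries fitted alone gave 5 calls against 2. Of 890 refits of single genes among the 10, 856 kept their side of the threshold, 30 lost a call and 4 gained one, and none turned a called direction. Over all genes tested, deviations from the group means correlated at −0.0832 to 0.0876 between same-numbered libraries (18 pairs). Between libraries of other numbers the range was −0.116 to 0.0964 (36 pairs). Wild-type library 3 had the highest *Bnip3* of its group both without doxycycline (229 CPM) and with it (107 CPM). Whether same-numbered libraries share an effect on a part of the genes was not tested. With the replicate block the wild-type response had 5 and 4 calls, and *Notch2* (difference of responses, adjusted p = 0.0643) and *Rbpj* (untreated lines, 0.0542) lost theirs. RLE and DESeq2 size factors moved the median of all genes by at most 0.004 on the log2 scale in size. At 15 to 82 counts per library, the range of *Hey1* and *Dll1*, small changes were not detectable.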

Other observations

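Of the 8 further Notch targets of the wider list 6 had too few counts to be tested. Their counts, summed over 3 libraries and with no test, were for *Hey2* 21 in the mutant line with doxycycline, 29 in the mutant line without, 10 in the wild-type line with and 12 in the wild-type line without. In the same order *Hes3* had 7, 5, 22 and 14 counts, *Hes5* had 8, 8, 1 and 4, *Hes2* had 5, 2, 5 and 10, *Hes7* had 1, 5, 5 and 3, and *Heyl* had 1, 0, 0 and 1. The ligand *Dll4* had 4, 2, 13 and 11.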
